A study of Mus musculus with 34 samples.

Results

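The myocyte enhancer factor 2 (MEF2) transcription factors Mef2a, Mef2b, Mef2c and Mef2d and 6 genes best known from muscle (Myh7, Myl4, Ckm, Acta1, Actc1 and Myog) were followed across the cerebral cortex of 4 mouse genotypes. All probe sets whose platform annotation names exactly 1 of these 10 genes were taken, which gave 23 of the 45037 probe sets on the Affymetrix Mouse 430 2.0 array. Of these, 15 belong to the MEF2 factors (Mef2a 6, Mef2b 1, Mef2c 5, Mef2d 3) and 8 to the muscle-type genes (Myh7 1, Myl4 2, Ckm 2, Acta1 1, Actc1 1, Myog 1). A further 3 probe sets are annotated to a member together with a neighbouring gene (2 to Myh7 and Myh6, 1 to Mef2b and Borcs8) and are attributed to neither.

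The study asked what loss of an Hdac4 allele does in mice that model Huntington's disease. Dble::R6/2 mice (n = 9) carried the R6/2 transgene, a mutated exon 1 fragment of human HTT, and were heterozygous for an Hdac4 knock-out allele. R6/2 mice (n = 9) carried the transgene with both Hdac4 alleles intact, Hdac4HET mice (n = 8) had the knock-out allele without the transgene, and WT mice (n = 8) had neither. All mice were 15 weeks old, of both sexes, on a CBA X C57Bl/6 background, and each array is labelled as 1 replicate of its genotype. The knock-out allele is present in every cell type and leaves 1 functional copy of Hdac4. Mice without a functional copy die early after birth.

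MEF2 proteins bind A/T-rich sites and switch on contractile protein genes in muscle and activity-dependent genes in neurons. Class IIa histone deacetylases, Hdac4 among them, bind MEF2 proteins and hold their targets down, and calcium-dependent kinases and the phosphatase calcineurin relieve that repression. In the cortex Mef2c is the family member best known from excitatory neurons, whereas sarcomeric genes such as Myh7 and Acta1 are known chiefly from striated muscle.

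Levels are the deposited log2 values, so a difference of 1 is a doubling. Levels of different probe sets are not on a common scale, so "brightest" and "dimmest" only name the probe sets of a gene. A probe set was called at an adjusted p of 0.05 or less (limma, 2 genotypes per fit, Benjamini-Hochberg adjustment over all 45037 probe sets). Arrays of 1 genotype correlated at 0.973 or more. The brightest Hdac4 probe set ran between 7.32 and 7.80 in Dble::R6/2, 7.54 and 8.14 in R6/2, 7.47 and 7.74 in Hdac4HET and 7.81 and 8.20 in WT, so the Hdac4HET and WT arrays did not overlap. Some arrays stand apart: Hdac4HET replicate 1 and WT replicates 2, 6 and 7 are high in the pituitary hormone gene Prl, R6/2 replicate 2 holds epidermal transcripts, Hdac4HET replicate 7 holds skeletal muscle transcripts, and in 15 of 34 arrays the Xist level differs from the labelled sex. As a rough guide to dim signal, 44 probe sets for olfactory receptors had a 95th percentile of 4.43, and Actc1 (mean over all arrays 4.38), the dimmer Ckm probe set (3.82) and Myog (3.59) lay at or below it.

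The promoters of 5 members are shown because their levels separated most clearly between genotypes (Myl4, Myh7, Acta1), because a near relative did not (Actc1), or because a match to the MEF2 consensus lies at the start of a MEF2 gene (Mef2a). Each runs from 250 bases before to 50 bases after the annotated start (RefSeq, GRCm38.p6), where all 10 genes were found with 13 start sites. Both strands were searched for the MEF2 consensus, for the CArG box bound by serum response factor, and for the E-box CANNTG bound by helix-loop-helix factors such as myogenin. Capitals mark these matches.
Myl4 promoter, chr11:104550413-104550712, plus strand: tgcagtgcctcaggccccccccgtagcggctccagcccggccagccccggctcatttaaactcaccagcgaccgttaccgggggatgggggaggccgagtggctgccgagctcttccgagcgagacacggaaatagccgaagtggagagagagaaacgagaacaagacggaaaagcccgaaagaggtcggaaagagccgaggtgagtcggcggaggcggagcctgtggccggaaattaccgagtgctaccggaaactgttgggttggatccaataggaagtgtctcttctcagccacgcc
Myh7 promoter, chr14:54994500-54994799, minus strand: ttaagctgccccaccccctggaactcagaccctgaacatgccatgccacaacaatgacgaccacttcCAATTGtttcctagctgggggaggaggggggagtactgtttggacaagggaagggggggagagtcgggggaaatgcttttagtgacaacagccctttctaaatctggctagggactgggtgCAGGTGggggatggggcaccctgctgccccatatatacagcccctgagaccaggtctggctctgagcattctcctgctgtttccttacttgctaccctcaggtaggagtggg
Acta1 promoter, chr8:123894726-123895025, minus strand: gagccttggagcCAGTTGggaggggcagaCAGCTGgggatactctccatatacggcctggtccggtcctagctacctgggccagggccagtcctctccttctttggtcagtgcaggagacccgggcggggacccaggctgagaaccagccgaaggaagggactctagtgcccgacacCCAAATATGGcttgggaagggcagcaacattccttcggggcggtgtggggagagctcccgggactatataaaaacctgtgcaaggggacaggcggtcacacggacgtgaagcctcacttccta
Actc1 promoter, chr2:114052826-114053125, minus strand: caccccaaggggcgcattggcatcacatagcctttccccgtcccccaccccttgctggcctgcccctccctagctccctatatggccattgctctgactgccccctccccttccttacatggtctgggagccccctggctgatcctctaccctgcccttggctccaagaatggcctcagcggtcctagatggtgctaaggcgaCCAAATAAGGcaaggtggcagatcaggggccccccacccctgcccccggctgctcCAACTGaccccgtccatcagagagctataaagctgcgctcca
Mef2a promoter, chr7:67372809-67373108, minus strand: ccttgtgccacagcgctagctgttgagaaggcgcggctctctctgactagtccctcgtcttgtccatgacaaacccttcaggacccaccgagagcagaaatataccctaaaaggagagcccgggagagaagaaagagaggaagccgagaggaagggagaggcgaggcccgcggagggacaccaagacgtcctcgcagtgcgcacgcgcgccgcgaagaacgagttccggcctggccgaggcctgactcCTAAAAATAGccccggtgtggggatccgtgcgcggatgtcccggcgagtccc
Counted from the start, a CArG box began at -73 in Acta1 and at -47 in Actc1 (1.63% of 32841 promoters hold one). The MEF2 consensus was matched only in Mef2a among the 13 windows, beginning at -2 (3.19% of all promoters). E-boxes are common, with 72.3% of promoters holding one. Of the windows shown, those of Myh7, Acta1 and Actc1 held E-boxes, as did windows of Mef2b, Mef2c, Ckm and Myog that are not shown. The shorter pattern CTANNNNTA, which overlaps the MEF2 consensus and is present in 21% of promoters, was also found at -64 in Myog and in 1 of the 3 Mef2c windows. The Myl4 window held none of the motifs searched. A match is a description of these letters and not a binding site.

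In the cortex of R6/2 mice the muscle-type genes Myl4, Myh7 and Acta1 were lower than in WT, and so was Mef2c. Of the 23 member probe sets, 7 were lower in R6/2 than in WT and 0 were higher, where 26.9% of all probe sets were called, 12% lower and 14.9% higher. Of the same 23, 5 did not overlap between the genotypes, against 7.22% of all probe sets. At an unadjusted p under 0.05 there were 12 of 23, against 36.2% of all. The median log2 change was -0.16 over the members and 0.01 over all probe sets. The 7 were Myl4, Myh7, Acta1, a pair of Mef2c probe sets, 1 of 3 Mef2d and 1 of 6 Mef2a probe sets. Without the 6 arrays that stand apart 6 were called, with Myl4 at -2.04, Acta1 at -0.74 and the brightest Mef2c probe set at -0.32, and in Dble::R6/2 against Hdac4HET 6 were called. In bulk cortex, fewer cells of a type and less RNA per cell cannot be told apart.

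**Figure D1:**
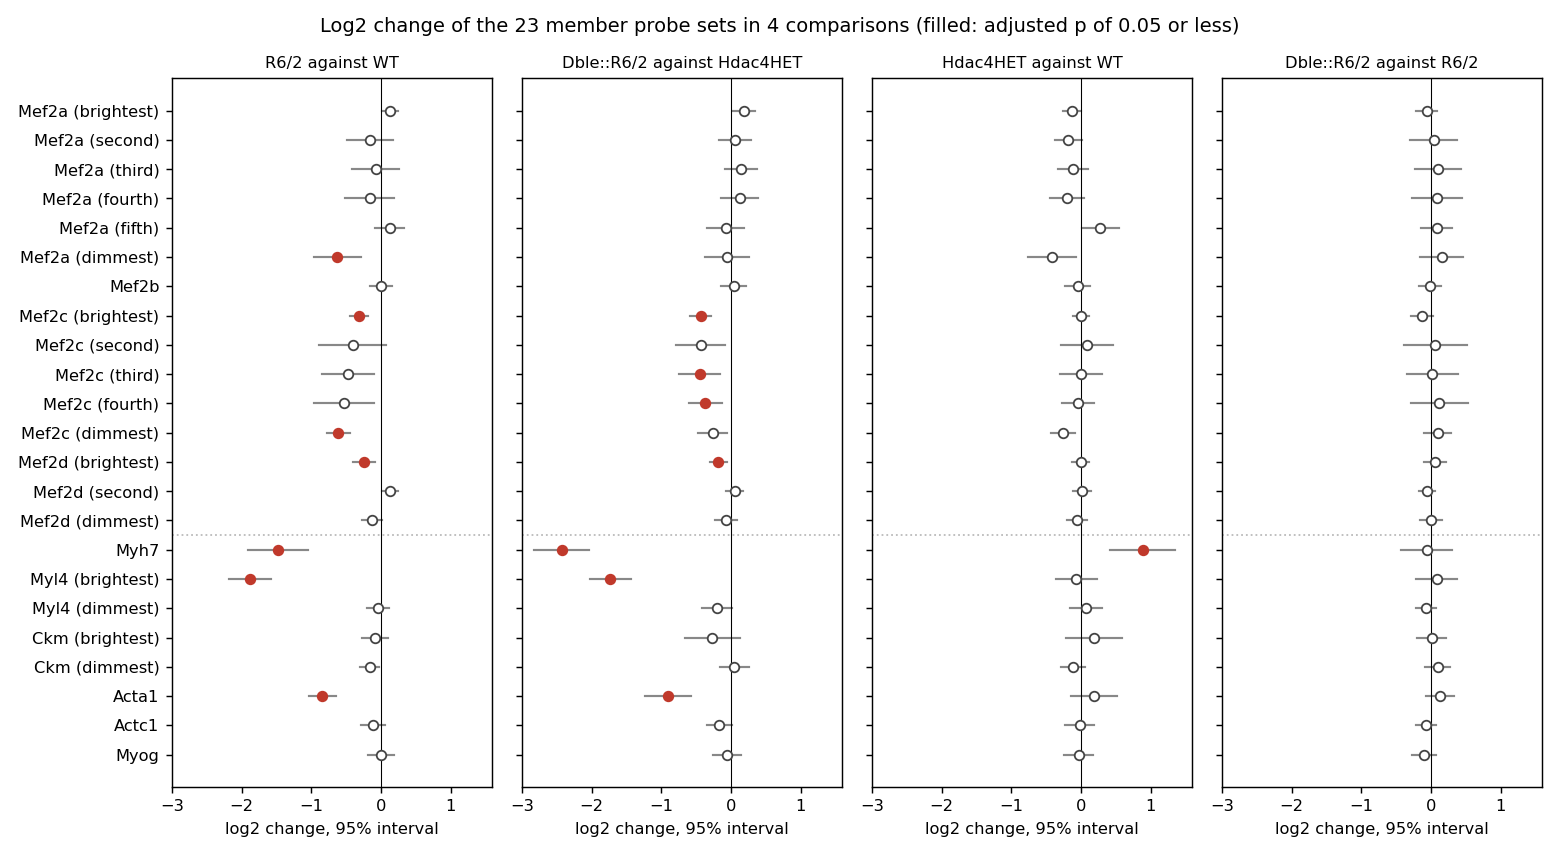
Log2 change (x axis, with its 95% interval) of the 23 member probe sets (rows) in 4 comparisons, filled where the adjusted p is 0.05 or less, with MEF2 factors above and muscle-type genes below the dotted line. The transgene comparisons hold 7 filled points each, all to the left of 0, Hdac4HET against WT holds 1, to the right, and Dble::R6/2 against R6/2 holds none.

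Myl4, the essential myosin light chain of atrial and embryonic muscle, had the largest change of the members in R6/2. Its brighter probe set ran between 6.10 and 7.45 in R6/2 with a median of 6.85, and between 8.42 and 9.11 in WT with a median of 8.75. Every R6/2 array was below every WT array. The log2 change was -1.88 (SE 0.14, adjusted p = 2.31e-08), or 27.1% of the WT level. Where the Hdac4 allele was lost, Dble::R6/2 arrays ran between 6.54 and 7.31 (median 6.93) and Hdac4HET arrays between 8.03 and 9.10 (median 8.72). These groups did not overlap either, with a log2 change of -1.73 (SE 0.14, adjusted p = 3.84e-08). The 18 transgene carriers of both kinds thus lay at 7.45 or below and the 16 non-carriers at 8.03 or above, a separation that 2.58% of all probe sets showed. The dimmer Myl4 probe set, with means of 5.32 in Dble::R6/2, 5.39 in R6/2, 5.51 in Hdac4HET and 5.44 in WT, did not pass the test (R6/2 against WT, log2 change -0.05, adjusted p = 0.712), so the 2 probe sets of the gene disagree.

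Myh7, the slow and cardiac beta myosin heavy chain, was also lower in transgene carriers, and was the only member called between Hdac4HET and WT. R6/2 arrays ran between 4.50 and 5.98 (median 5.20) and WT arrays between 6.17 and 7.49 (median 6.70). The groups did not overlap, and the log2 change was -1.48 (SE 0.21, adjusted p = 2.59e-05), or 35.7% of WT. Dble::R6/2 arrays ran between 4.64 and 5.79 (median 5.24), against 6.81 to 8.27 (median 7.78) in Hdac4HET. That difference was larger, at -2.43 (SE 0.19, adjusted p = 1.82e-08), or 18.6% of the Hdac4HET level, and again the groups were separate. A probe set shared by Myh7 and Myh6, the alpha myosin heavy chain, gave -1.44 in R6/2 against WT (adjusted p = 3.02e-05) and -1.86 in Dble::R6/2 against Hdac4HET (adjusted p = 1.99e-08). The other shared one averaged 2.95 in Dble::R6/2, 2.94 in R6/2, 2.88 in Hdac4HET and 2.95 in WT, within the range of dim signal. The probe set for Myh6 alone was dim as well, with means of 3.05 in R6/2 and 3.20 in WT.

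Between Hdac4HET and WT, 1 of the 23 members was called, higher in Hdac4HET, against 3.91% of all probe sets (1.67% higher, 2.23% lower), and 0 of the 23 did not overlap (0.28% of all). This was Myh7, at 0.88 (SE 0.22, adjusted p = 0.0383), with 6 of 8 Hdac4HET arrays above the highest WT array. The call was lost under 13 of 26 alternative settings, with the change between 0.72 and 1.01 throughout and the adjusted p reaching 0.311. Leaving out any 1 of WT replicates 1, 2, 5, 6 and 7 or Hdac4HET replicates 2, 5, 6 and 8 was enough. The probe set shared with Myh6 gave 0.52 (adjusted p = 0.118). Among the other members the lowest change was -0.42, for the dimmest Mef2a probe set (adjusted p = 0.144). The lowest adjusted p was that of the dimmest Mef2c probe set, which changed by -0.26 (adjusted p = 0.0841). Of the 8 Hdac4HET arrays, 5 were below the lowest WT array there. It was called without Hdac4HET replicate 4 (adjusted p = 0.047), and the Mef2a probe set without WT replicate 8 (adjusted p = 0.0449). At an unadjusted p under 0.05 there were 5 of 23, against 21.4% of all.

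Acta1, the skeletal muscle alpha-actin, was lower in carriers too, by less than Myl4 and Myh7. R6/2 arrays ran between 6.37 and 7.15 (median 6.73) and WT arrays between 7.41 and 7.83 (median 7.53). There was no overlap, and the log2 change was -0.84 (SE 0.09, adjusted p = 1.93e-06), or 55.8% of WT. Dble::R6/2 arrays ran between 6.52 and 7.04 (median 6.91) and Hdac4HET arrays between 7.16 and 8.82 (median 7.70). The log2 change was -0.90 (SE 0.16, adjusted p = 0.000242), and -0.75 (adjusted p = 1.87e-05) without Hdac4HET replicate 7, where Acta1 was highest. Over all 34 arrays the carriers reached at most 7.15 and the non-carriers went down to 7.16, so the 2 ranges barely part. The value of 7.15 was that of R6/2 replicate 8, which also had the highest summed skeletal muscle markers of the R6/2 arrays (log2 9.79).

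**Figure D2:**
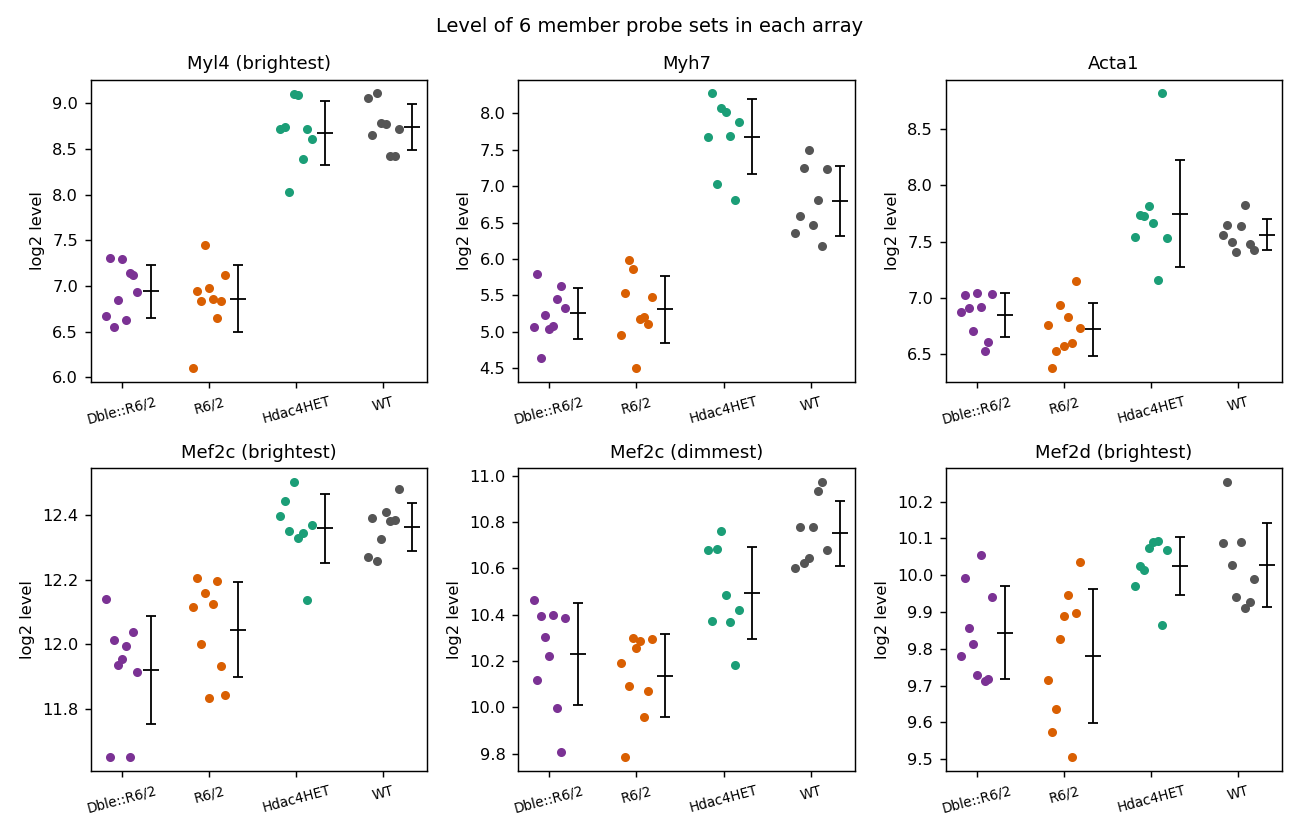
Log2 level (y axis) of 6 member probe sets in each array (points) by genotype (x axis), with the mean and SD of each genotype in black. Carriers and non-carriers are separate for Myl4, Myh7 and Acta1, and the ranges meet or overlap for Mef2c and Mef2d.

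Mef2c, the MEF2 factor of excitatory neurons, had lower means in R6/2 than in WT on each of its 5 probe sets, and 2 of the 5 passed the test. The brightest ran between 11.83 and 12.20 in R6/2 (median 12.12) and between 12.26 and 12.48 in WT (median 12.38). The groups did not overlap, although the change was only -0.32 (SE 0.06, adjusted p = 0.000842), or 80.3% of WT. The dimmest ran between 9.79 and 10.30 in R6/2 (median 10.19) and between 10.60 and 10.97 in WT (median 10.73). It did not overlap either and fell further, with a change of -0.61 (SE 0.08, adjusted p = 1.15e-05). The remaining 3 had changes of -0.41, -0.47 and -0.54 with adjusted p of 0.217, 0.0593 and 0.06, and SDs within genotypes of up to 0.59. Without the 6 arrays that stand apart these became -0.19, -0.39 and -0.27.

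With the Hdac4 allele lost on both sides, 3 of the 5 Mef2c probe sets were lower in Dble::R6/2 than in Hdac4HET. In this comparison, where 7 of the 23 members were lower and 0 higher (23.1% of all probe sets called, 9.98% lower) and 3 did not overlap (6.05% of all), the brightest ran between 11.65 and 12.14 in Dble::R6/2 (median 11.95), against 12.14 to 12.50 in Hdac4HET (median 12.36). Of the 9 Dble::R6/2 arrays, 8 were below the lowest Hdac4HET array, and the change was -0.44 (SE 0.07, adjusted p = 0.000126). The third and the fourth brightest changed by -0.45 (adjusted p = 0.0251) and -0.37 (adjusted p = 0.0202), and both calls were lost with a replicate block (adjusted p = 0.0685 and 0.127 at most over all alternatives). The dimmest, which was called in R6/2 against WT, had -0.26 here (adjusted p = 0.058). Which Mef2c probe sets passed therefore differed between the 2 transgene comparisons, while every one of the 5 was lower by its mean in both.

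Mef2d, a broadly expressed family member, changed less. Its brightest probe set ran between 9.51 and 10.04 in R6/2 (median 9.83) and between 9.91 and 10.25 in WT (median 10.01). Of the 9 R6/2 arrays, 7 lay below the lowest WT array, and the change was -0.25 (SE 0.08, adjusted p = 0.0193). The call was lost without the 4 arrays high in Prl (adjusted p = 0.0765 at most). Dble::R6/2 arrays ran between 9.71 and 10.05 (median 9.81), against 9.86 to 10.09 (median 10.05) in Hdac4HET, a change of -0.18 (SE 0.06, adjusted p = 0.0305). This call was lost without any 1 of 7 arrays, Hdac4HET replicates 4, 5, 6 and 8 and Dble::R6/2 replicates 5, 7 and 8, with an adjusted p of 0.0589 at most. The other 2 Mef2d probe sets had changes of 0.13 (adjusted p = 0.112) and -0.13 (adjusted p = 0.2) in R6/2 against WT, which do not share a sign.

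Mef2a, another broadly expressed member, had 1 called probe set of 6. This was the dimmest, between 4.15 and 5.02 in R6/2 (median 4.64) and between 4.62 and 6.14 in WT (median 5.24). The groups overlapped, with 4 of 9 R6/2 arrays below the lowest WT array, and the change was -0.63 (SE 0.16, adjusted p = 0.00613). The R6/2 arrays lay close to the level of dim signal (4.43) and replicate 8 below it, so the size of this change is uncertain. It was not called in Dble::R6/2 against Hdac4HET. The brightest Mef2a probe set went the other way, at 0.12 (adjusted p = 0.111) in R6/2 against WT and 0.19 (adjusted p = 0.0784) in Dble::R6/2 against Hdac4HET, and neither passed. Mef2b, a family member best known from B lymphocytes, averaged 4.62 ± 0.18 in Dble::R6/2, 4.63 ± 0.13 in R6/2, 4.58 ± 0.18 in Hdac4HET and 4.63 ± 0.18 in WT (SD), with no call in any comparison.

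The remaining muscle-type genes did not pass the test in any of the 4 comparisons. Ckm is the muscle creatine kinase. Its brighter probe set ran between 4.90 and 5.47 in Dble::R6/2, 4.92 and 5.76 in R6/2, 5.07 and 6.91 in Hdac4HET and 5.20 and 5.39 in WT. All 4 ranges overlapped, and R6/2 differed from WT by -0.09 (95% interval -0.28 to 0.10). Actc1, the cardiac alpha-actin, averaged 4.28 ± 0.10 in Dble::R6/2, 4.36 ± 0.17 in R6/2, 4.45 ± 0.24 in Hdac4HET and 4.47 ± 0.17 in WT (SD). Myog, the helix-loop-helix factor myogenin that drives muscle differentiation, lay between 3.23 and 3.90 on every array. Both Actc1 and Myog lay at or below the level of dim signal on average, which limits what the lack of a call can show.

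Losing an Hdac4 allele on the transgenic background gave no called member. Of the 23 probe sets, 0 were called between Dble::R6/2 and R6/2, also at an unadjusted p under 0.05, where 0.00666% of all probe sets were called by limma (0.00444% higher, 0.00222% lower) and 5.68% had such an unadjusted p. Changes ran from -0.12 to 0.15, and 0 of the 23 were without overlap (0.0178% of all). For Myl4 the 2 genotypes differed by 0.08 (95% interval -0.22 to 0.38), for Myh7 by -0.06 (-0.42 to 0.31), for Acta1 by 0.13 (-0.07 to 0.33) and for the brightest Mef2c probe set by -0.12 (-0.28 to 0.03). These intervals bound the size of any difference and do not show that the genotypes are alike.

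Whether the allele acted differently with and without the transgene was tested as an interaction over all 34 arrays. No member was called, where 0.00222% of all probe sets were, and 9.87% of all had an unadjusted p under 0.05. Myh7 had the lowest adjusted p of the members, with a value of -0.94 (SE 0.29, adjusted p = 0.289, limma) and allele effects of -0.06 in transgene carriers and 0.88 in non-carriers. The dimmest Mef2c probe set had 0.35 (adjusted p = 0.343) and the dimmest Mef2a probe set 0.57 (adjusted p = 0.399).

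Muscle tissue was looked for through 20 skeletal muscle markers other than the members. Their summed level had a log2 between 9.11 and 9.50 in Dble::R6/2, 9.12 and 9.79 in R6/2, 9.50 and 10.89 in Hdac4HET and 9.34 and 9.62 in WT. Hdac4HET replicate 7 was the highest, and 14 of the 20 markers had their highest Hdac4HET value there. The fast myosin heavy chain Myh1 stood at 8.42 in that array, against at most 4.33 in the other Hdac4HET arrays, and the fast troponin C gene Tnnc2 at 7.87 against at most 4.43. Ckm (6.91) and Acta1 (8.82) were highest there too. Without that array, Ckm in Hdac4HET against WT was -0.02 instead of 0.19 and Acta1 0.04 instead of 0.19. Actc1 (4.95) and the dimmer Myl4 probe set (6.03) also had their highest Hdac4HET value there, whereas Myh7 had its lowest, 6.81.

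**Figure D3:**
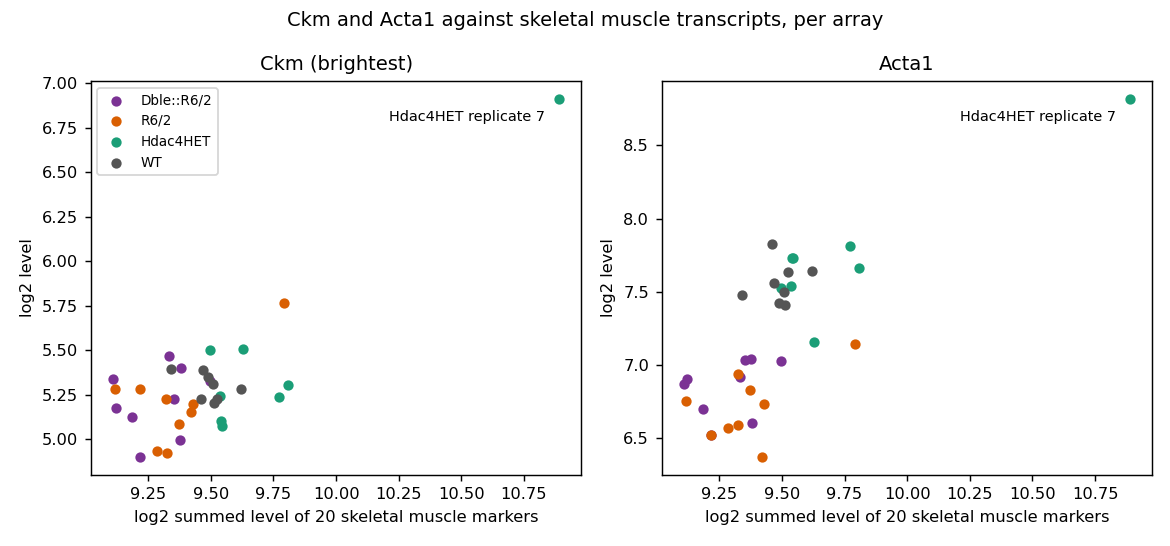
Log2 level of the brighter Ckm probe set and of Acta1 (y axes) against the log2 summed level of 20 skeletal muscle markers (x axis), 1 point per array, coloured by genotype. Hdac4HET replicate 7 lies apart at the top right of both panels, at 10.89 on the x axis.

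Over all skeletal muscle markers, 3 of 20 fell and 1 rose in R6/2 against WT, where 32% of all genes were called, and the list median was -0.02 against 0.02 over all genes. Those that fell were the titin cap Tcap (-0.72), the fast myosin Myh2 (-0.63) and the slow troponin T gene Tnnt1 (-0.36), and the calsequestrin Casq1 rose by 0.51. In Dble::R6/2 against Hdac4HET 6 fell and 1 rose (30% of all genes called), with a list median of -0.32 against 0.02, and the embryonic and fast light chain Myl1 (-1.20) and Myh2 (-0.96) fell furthest. Hdac4HET replicate 7 was included there, with Myl1 at 6.94 and Myh2 at 5.74. The other Hdac4HET arrays had medians of 5.28 and 4.95, and the list was not tested without that array. In Hdac4HET against WT none was called, with a list median of 0.21 against 0.00 over all genes, Hdac4HET replicate 7 included. Myh2 averaged 4.07 in Dble::R6/2 and 4.09 in R6/2, and Myl1 4.21 in Dble::R6/2, within the range of dim signal, so these sizes are not exact. Of these 20 markers, 9 were within the range of dim signal, Myh1, Myh4 and Tnnc2 among them. Of 12 cardiac markers 2 fell, the slow and cardiac troponin C gene Tnnc1 (-1.06, adjusted p = 9.89e-05) and the dim Myh6 (-0.15). In Dble::R6/2 against Hdac4HET Tnnc1 alone of the 12 fell (-1.07), and the list medians were -0.06 in both comparisons. The log2 of the summed cardiac list lay between 8.37 and 8.94 in Dble::R6/2, 8.33 and 8.70 in R6/2, 8.69 and 9.50 in Hdac4HET and 8.79 and 9.38 in WT. By this sum, which weights the brighter markers, R6/2 and WT did not overlap, whereas Dble::R6/2 and Hdac4HET did. By the mean log2 level of the same list R6/2 and WT overlapped too, with R6/2 replicate 8 at 4.355 and WT replicate 5 at 4.350. Of the 12, 8 were within the range of dim signal, including the atrial light chain Myl7 and the natriuretic peptides Nppa and Nppb. No smooth muscle marker of 8 was called in R6/2 against WT, and 3 fell in Dble::R6/2 against Hdac4HET, Acta2 (-0.64) the furthest. The part of other cell types in the levels of the members was not tested.

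Among 25 genes that act on MEF2 proteins, 7 fell and 2 rose in R6/2 against WT (32% of all genes called, list median -0.05 against 0.02). The 4 largest changes were those of the calcium-dependent kinase Camk4 (-0.54, adjusted p = 0.00633), the calcineurin subunits Ppp3ca (-0.53, adjusted p = 0.00131) and Ppp3r1 (-0.43, adjusted p = 3.79e-05), and the acetyltransferase Ep300 (0.49, adjusted p = 0.000217). In Dble::R6/2 against Hdac4HET 11 fell and 2 rose (30% of all genes), led by the cofactor Vgll4 (-0.71) and again Camk4 (-0.58). Between Hdac4HET and WT the 1 gene called was Hdac4 itself (-0.48, adjusted p = 0.0036), and between Dble::R6/2 and R6/2 there was none. Hdac4 stands here for its brightest probe set, which averaged 7.58 in Dble::R6/2 and 7.91 in R6/2. Its second brightest probe set averaged 7.25 and 7.86 and did not overlap between these 2 genotypes, so the lack of a call does not mean unreduced Hdac4.

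Of 8 measured neuronal MEF2 targets, 4 fell and 0 rose in R6/2 against WT, where 32% of all genes were called. The dendritic activity gene Arc changed by -1.64 (adjusted p = 5.82e-06), the nuclear receptor Nr4a1 by -0.74, the synaptic scaffold gene Homer1 by -0.65 and the neurotrophin Bdnf by -0.50. The list median was -0.36, against 0.02 over all genes. In Dble::R6/2 against Hdac4HET 5 fell and 1 rose (30% of all genes called), with Arc at -2.11 and Bdnf at -0.82. None was called in Hdac4HET against WT or in Dble::R6/2 against R6/2. Cortical excitatory neuron markers moved the same way: 4 of 6 fell and 1 rose in R6/2 against WT, with a summed log2 level between 11.28 and 11.70 in R6/2 and between 11.67 and 11.93 in WT, and their part in these values was not tested.

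Of 10 myogenic helix-loop-helix factors, their partners and inhibitors, 2 rose and 2 fell in R6/2 against WT, a share near the 32% of all genes called. Twist1, which inhibits MEF2 and myogenic factors, averaged 6.84 in R6/2 and 4.13 in WT, a change of 2.71 (adjusted p = 2.53e-10), and Dble::R6/2 against Hdac4HET gave 2.42 (adjusted p = 3.73e-08). The means of WT and of Hdac4HET (4.30) were within the range of dim signal, so neither size is exact. The E protein Tcf12 rose by 0.26, whereas the helix-loop-helix inhibitors Id2 (-0.60) and Id1 (-0.45) fell. The muscle determination genes Myod1, Myf5 and Myf6 were, like Myog, within the range of dim signal.

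Probe sets of 1 gene did not always vary together within genotypes. Given as correlations of each array's deviation from its genotype mean, over 34 arrays that share their cortex samples and handling, the Mef2a probe sets of brightness ranks 2, 3 and 4 followed each other at 0.96 to 0.97. The second brightest Mef2a probe set also followed the second brightest of Mef2c at 0.59 and the fourth brightest at 0.79, but the brightest Mef2c probe set at only 0.01. The 2 Mef2c probe sets that separated R6/2 from WT correlated with each other at 0.22. Without the 5 arrays with pituitary or epidermal transcripts the last 4 values were 0.52, 0.59, 0.19 and 0.34 in the same order.

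**Figure D4:**
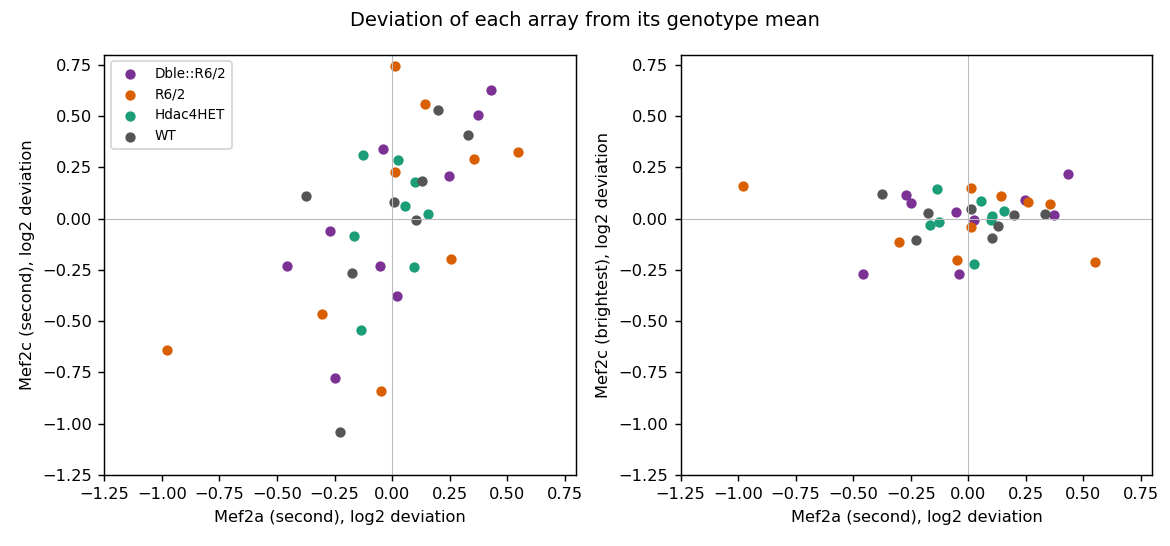
Log2 deviation of each array from its genotype mean for the second brightest Mef2a probe set (x axes) against the second brightest (left) and the brightest (right) Mef2c probe set (y axes), coloured by genotype. The points rise together on the left (r = 0.59) and not on the right (r = 0.01).

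The genes most like each member were ranked by the same correlation over 18193 genes. For Acta1 these were skeletal muscle genes, Mylpf (0.76), Tnni2 (0.75) and Myh1 (0.75), and Hdac4HET replicate 7 was among the 34 arrays. Myl4 was closest to Otud7a (0.79), Epb41l1 (0.77) and Lmo3 (0.75), and Myh7 to Ppp1r3e (0.73), Ptgr1 (0.72) and Ang (0.69). Mef2c was closest to Brwd1 (0.85), Mef2d to Vps9d1 (0.86) and Mef2a to Pank3 (0.88). Without the 5 arrays with pituitary or epidermal transcripts the closest gene changed for Mef2a (Ankib1, 0.925), Mef2d (Gpalpp1, 0.863) and Myh7 (D430041D05Rik, 0.768). It stayed the same for Acta1 (Mylpf, 0.81), Myl4 and Mef2c. Hdac4HET replicate 7 was still among these arrays, and the match of Acta1 was not tested without it. Between the brightest probe sets of these 6 members over all 34 arrays, Myl4 and Myh7 had the highest value, 0.49. Acta1 and Myh7 had one of -0.35 and Acta1 and Myl4 one of 0.07, so over these arrays the 3 muscle-type genes did not vary as 1 group. Hdac4HET replicate 7 was included, where Acta1 deviated by 1.07 and Myh7 by -0.87 from the genotype mean. Whether the values of Acta1 hold without that array was not tested.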

How the data were processed

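Total RNA from cortex of 34 mice had been labelled with biotin and hybridised to Affymetrix Mouse 430 2.0 arrays, 1 array per sample. The authors deposited log2 values for 45037 probe sets, with array quality control through RACE. How they were summarised and normalised is not given in the sources used here, and the number of arrays limits the precision. Of the value columns, 0 were without a sample.

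Genes were named from the platform annotation (34945 probe sets with 1 symbol, 932 with several, 9160 with none). Pairs of genotypes were compared with limma 3.58.1 in R 4.3.3, 2-sided, without covariates, with Benjamini-Hochberg adjustment over all probe sets, and the interaction was fitted over 4 genotypes. The study's methods used a t-test per probe set, which was run as an alternative. The fits of 2 genotypes were tested on simulated data with independent noise, and the interaction fit was not. Figures were drawn with matplotlib 3.10.9. Where a gene outside the members stands for a list, its brightest probe set was used. Every member probe set is reported, and up to 4 called genes of each other list, those with the largest change, are named. Nothing says whether the replicates came from separate litters, so p-values measure the spread between these samples.

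The members and lists were chosen with earlier results of these data known, as were the arrays left out for Prl and epidermal transcripts. Alternatives covered quantile normalisation, a filter on dim probe sets, moderation with trend, sex as a covariate, a replicate block, a single fit over 4 genotypes, the t-test, and leaving out arrays. Same-numbered arrays of the compared genotypes correlated at -0.185 to 0.31 in their deviations. Arrays with different numbers were not compared in this way, so whether replicate numbers pair the samples was not tested.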

Additional observations from a re-analysis of the deposited data

Results flagged for a closer look

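Within groups of 8 or 9 arrays, 8 member values stood apart from the rest of their group, of 92 groups examined. Chance marks about 5% of groups. The 8 values fall on 6 arrays.

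Hdac4HET replicate 7 carried 3 of them: Ckm at 6.91 (next array 5.51) and Acta1 at 8.82 (next 7.81) were high, and the brightest Mef2c probe set at 12.14 (next 12.33) was low. This is the array with skeletal muscle transcripts.

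The other 5 were single values. The brighter Ckm probe set stood at 5.76 in R6/2 replicate 8 (next 5.28), where the summed skeletal muscle markers were also the highest of the group. The dimmer Ckm probe set stood at 3.39 in R6/2 replicate 2 (next 3.68), the array with epidermal transcripts. The third brightest Mef2c probe set was low in WT replicate 3, at 10.40 (next 11.16), the fourth brightest Mef2a probe set was low in Hdac4HET replicate 5, at 8.23 (next 8.58), and Mef2b was low in Hdac4HET replicate 1, at 4.19 (next 4.55).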

How the results depend on the processing

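The 15 called member values kept their sign under every alternative run. Myl4, Myh7, Acta1 and the brightest Mef2c probe set also kept their calls in both transgene comparisons, as did the dimmest Mef2c and Mef2a probe sets in R6/2 against WT, with an adjusted p of 0.0499 for Mef2a without 6 arrays (4 high in Prl, 1 with epidermal and 1 with muscle transcripts), a setting chosen after seeing the data. Between Hdac4HET and WT the count of 1 called member (Myh7) became 0 with a sex term taken from the Xist level, with the methods' t-test, without the 4 arrays high in Prl and without the 6 arrays, and ran from 0 to 2 when single arrays were left out. Over all probe sets that comparison gave 1760 calls, and 3 to 3994 over the alternatives. Leaving out single arrays gave 7 to 10 called members in R6/2 against WT and 5 to 9 in Dble::R6/2 against Hdac4HET, both 7 with all arrays, and 0 throughout in Dble::R6/2 against R6/2. With the replicate block the counts were 7 (R6/2 against WT), 1 (Hdac4HET against WT), 0 (Dble::R6/2 against R6/2) and 6 (Dble::R6/2 against Hdac4HET). The Mef2d call in Dble::R6/2 against Hdac4HET was lost without any 1 of 7 arrays. Of 77 member values that were not called, 9 were called under some alternative and 29 changed sign under one. The cause of these changes was not tested.

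Signals near the level of the olfactory receptor probe sets limit what can be said of Actc1, Myog, Mef2b, the dimmer Ckm and the dimmest Mef2a probe set. Where probe sets of 1 gene disagree, these arrays do not show which is right.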
